A study of Rattus norvegicus with 9 samples.

Results

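The antioxidant and redox genes examined here were the 45 genes, of 17337 in the count table, whose symbols name a superoxide dismutase, catalase, glutathione peroxidase, peroxiredoxin, sulfiredoxin, thioredoxin, thioredoxin reductase, thioredoxin-interacting protein, glutaredoxin, enzyme of glutathione synthesis or reduction, heme oxygenase, NADPH oxidase subunit, or the regulators Nfe2l2 and Keap1. The rule reads symbols and uses no measured value. RNA was sequenced from cultured cardiac fibroblasts, the connective-tissue cells of the heart, of Sprague Dawley rats at 3 ages with 3 libraries each. The fetal group was taken at embryonic day 18, the neonatal group on postnatal day 1 and the adult group at 7 weeks of age. The labels name no genetic change and no treatment. Cells of every age were unpassaged cultures grown to confluency in medium with 10% serum, 0.1 mM ascorbic acid and antibiotics before RNA was taken, so the 3 ages share that culture, ascorbic acid itself being an antioxidant. The labels state neither a sort nor whether the libraries of an age came from separate animals or flasks, so p-values measure the spread between these libraries, which may be technical.

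Cells make superoxide and hydrogen peroxide as by-products of respiration and on purpose through NADPH oxidases. Superoxide dismutases turn superoxide into hydrogen peroxide, and catalase, glutathione peroxidases and peroxiredoxins then break the peroxide down. Glutathione, thioredoxin and their NADPH-fed reductases return the peroxidases and peroxiredoxins to the reduced state. The transcription factor NRF2, the product of Nfe2l2, drives many of these genes through antioxidant response elements and is held back by KEAP1. In cardiac fibroblasts NOX4 is known as the main NADPH oxidase, while the oxidase built on gp91phox (Cybb) belongs to phagocytes.

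Library totals ran from 13392825 to 22850491 assigned counts. Levels are given as counts per 1000000 assigned counts (CPM), scaled by TMM in edgeR, and levels of different genes are compared only per kilobase of exon (RPKM). Within an age, pairs of libraries differed in chi-square per degree of freedom over genes by 2.05 to 2.76 among neonatal and by 6.76 to 42.96 among adult libraries, and by 3.94 between fetal libraries 1 and 2. Fetal library 3 stood apart from both, at 90.0 and 97.3. The 9 fibroblast markers had counts in every library of the series, Col1a2 only at 0.0531 to 0.976 CPM. In fetal library 3 they summed to 27523 CPM, and in the highest fetal library to 53897. Its 7 lung epithelial markers summed to 259.9 CPM against 12.3 and 13.1 in the other fetal libraries. Neonatal libraries had a fibroblast sum of 71919 to 78168 CPM and adult libraries one of 26540 to 35326. The sum of 13 cardiomyocyte markers lay at 7679 to 11586 CPM before birth, 5315 to 5880 just after it and 305 to 320 in adult cells, where 4 to 6 of the markers had no count. The 12 macrophage markers went the other way, at 14.4 to 59.9, 108 to 120.1 and 2566 to 3395 CPM. The sum of 6 endothelial markers was 8.21 to 9.48, 17.3 to 20.3 and 81.4 to 95.3 CPM at the 3 ages, and that of 6 mural markers 647 to 1678, 3148 to 3251 and 1450 to 1663. The endothelial list was split, with 4 genes higher and 2 lower in adult than in neonatal cells at an edgeR adjusted p under 0.05. Over all genes tested, 31.6% were higher and 31.8% lower. Kdr was among the lower, at 5.17, 5.90 and 5.56 CPM in neonatal and 1.38, 0.650 and 0.674 in adult libraries. The part of these cell-type differences in the results below was not tested. In such bulk RNA, fewer cells of a type and less RNA per cell cannot be told apart.

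Promoters were read for the members because NRF2 is known to act through a fixed core sequence, and because several members moved together. Of the 45 members, 37 had an entry among the 33469 rat promoters of RefSeq (assembly GRCr8, 250 bases before to 50 after the start). The core letters TGACNNNGC, searched on both strands, were found in 9 of the 37 members (24.3%) and in 12.1% of all promoters. The letters GAGGAA, the core that the myeloid factor PU.1 recognises, were in 9 of 37 (24.3%) and in 27.6% of all promoters. The 250 bases before the start are printed for 4 members: Gclm and Prdx1, textbook NRF2 targets, Sod2, the dismutase with the largest adult rise, and Cybb, the phagocyte oxidase. On GRCr8 they are chr2:213031885-213032134 and chr5:135383656-135383905 on the plus strand, and chr1:50050169-50050418 and chrX:16065066-16065315 on the minus strand. Capitals mark the core TGACNNNGC in the first 3 and GAGGAA in Cybb, each here on the opposite strand, so that the letters read as its reverse complement.
Gclm: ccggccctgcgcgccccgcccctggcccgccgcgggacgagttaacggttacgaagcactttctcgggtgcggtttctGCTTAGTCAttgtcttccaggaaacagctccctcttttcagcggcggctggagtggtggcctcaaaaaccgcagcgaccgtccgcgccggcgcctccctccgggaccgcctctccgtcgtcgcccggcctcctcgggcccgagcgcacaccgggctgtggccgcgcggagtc
Prdx1: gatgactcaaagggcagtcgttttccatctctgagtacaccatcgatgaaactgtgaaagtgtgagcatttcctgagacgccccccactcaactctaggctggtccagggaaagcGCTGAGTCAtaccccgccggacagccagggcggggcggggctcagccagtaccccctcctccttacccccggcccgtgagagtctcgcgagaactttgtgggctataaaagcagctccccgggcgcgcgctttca
Sod2: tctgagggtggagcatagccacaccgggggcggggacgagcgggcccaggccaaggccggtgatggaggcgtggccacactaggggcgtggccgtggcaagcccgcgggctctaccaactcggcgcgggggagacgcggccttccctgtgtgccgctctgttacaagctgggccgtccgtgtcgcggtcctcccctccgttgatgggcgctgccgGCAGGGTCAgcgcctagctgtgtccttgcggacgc
Cybb: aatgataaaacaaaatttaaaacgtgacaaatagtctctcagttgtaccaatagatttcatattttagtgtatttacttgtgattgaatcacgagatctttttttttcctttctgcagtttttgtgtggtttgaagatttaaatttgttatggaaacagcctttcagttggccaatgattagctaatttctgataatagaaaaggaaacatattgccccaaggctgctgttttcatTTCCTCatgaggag
The match began 172 bases before the start in Gclm, 135 in Prdx1, 35 in Sod2 and 14 in Cybb. In Prdx1 the core overlaps the AP-1 letters TGACTCA, read on the opposite strand. The other members with TGACNNNGC were Prdx4, Prdx5, Hmox2, Gpx2, Ncf1 and Nfe2l2. A match describes the letters in this window and is no evidence of binding.

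Of the 45 members, 41 passed the filter on low counts. Gpx5, Gpx6 and Nox3 had no count in any library, and Nox1 had too few. Among the 41, 38 differed among the 3 ages at an edgeR adjusted p under 0.05, beside 77.6% of the 11337 genes tested. Between fetal and neonatal cells 10 were higher in the neonatal libraries (18.3% of all genes tested were) and 7 lower (18% of all), and 24 did not pass. Between neonatal and adult cells 24 were higher in the adult (31.6% of all), 5 lower (31.8% of all) and 12 did not pass. Against fetal cells, 26 were higher in the adult (34.9% of all), 8 lower (35.5% of all) and 7 did not pass. Counted in either direction, 41.5% of the 41 passed from fetal to neonatal (36.3% of all genes tested), 70.7% from neonatal to adult (63.5%) and 82.9% from fetal to adult (70.5%). Differences of at least 1 on the log2 scale numbered 2 higher and 1 lower from fetal to neonatal (5.8% and 5.42% of all), 14 and 1 from neonatal to adult (12.8% and 12.2%) and 13 and 1 from fetal to adult (16.6% and 15.8%). The libraries of the ages compared did not overlap for 15 members higher and 13 lower in the neonatal than the fetal group (57.4% of all genes tested, in either direction), for 26 and 6 in the adult against the neonatal group (76.1%) and for 27 and 8 in the adult against the fetal group (71.8%). The median log2 fold change was 0.06 from fetal to neonatal, 0.42 from neonatal to adult and 0.41 from fetal to adult, and over all genes tested it was -0.01 in each comparison. Each pair of comparisons shares an age and thus 3 libraries.

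The summed level of the 45 genes was 4193 to 4357 CPM before birth, 4429 to 4559 just after it and 8519 to 9660.0 in adult cells. Subunits of the phagocyte oxidase were counted apart after the data were seen, because macrophage markers moved with them. Without these subunits, 19 of 36 members were higher and 5 lower in adult than in neonatal cells (31.6% and 31.8% of all genes tested). Against fetal cells, 21 of the 36 were higher and 8 lower in the adult (34.9% and 35.5% of all). The fetal to neonatal counts depended on single libraries: leaving out neonatal library 1 left 5 higher, neonatal library 2 left 6 higher, and neonatal library 3 left 3 lower. The shares of all genes tested, 18.3% higher and 18% lower with all libraries, fell as well, to 12.6% higher, 12% higher and 9.58% lower in the same order. Without fetal library 3 the counts were 12 higher and 6 lower, beside 21% and 19.6% of all genes tested. With library totals in place of TMM, the median of all genes moved by -0.17 between fetal and neonatal cells and by -0.11 between fetal and adult cells. The members called from fetal to neonatal were then 8 higher and 14 lower, beside 12% and 29.3% of all genes tested. The split of those calls went from 58.8% to 36.4% higher, and that of all genes called from 50.4% to 29%.

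**Figure D1:**
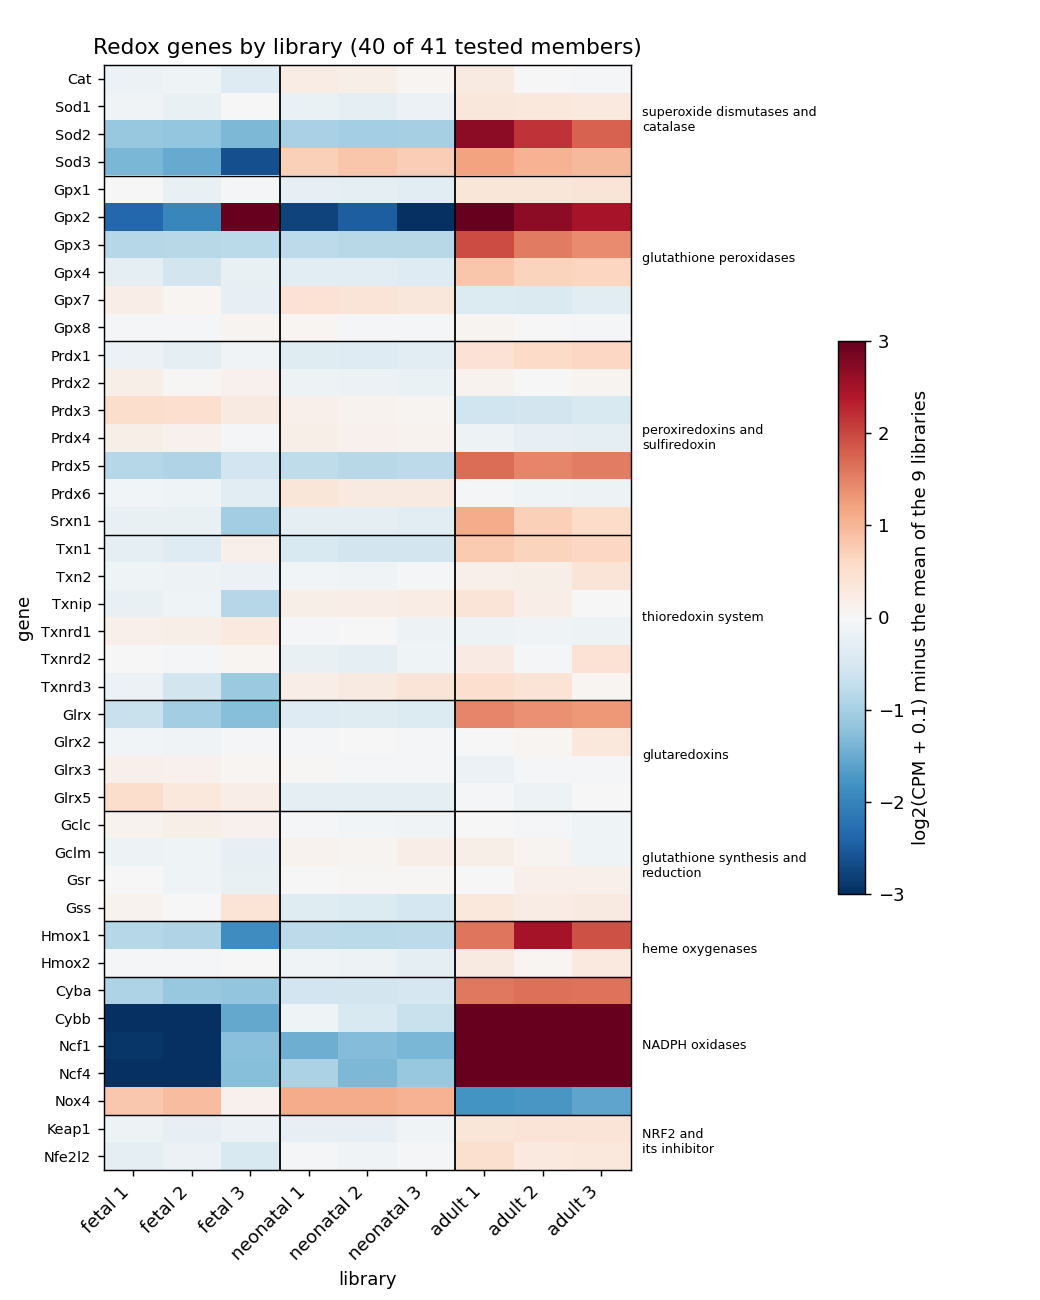
Heat map of 40 of the 41 tested genes (rows, grouped by role) in the 9 libraries (columns). Colour is log2(CPM + 0.1) minus the gene's mean over the 9 libraries, with colours capped at 3 in either direction; the adult columns are red for Sod2, Gpx3, Prdx5, Glrx, Hmox1 and the phagocyte oxidase subunits and blue for Nox4, and Gpx2 is red in fetal library 3 alone among the fetal and neonatal libraries.

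Among the enzymes that remove superoxide, the mitochondrial Sod2 and the secreted Sod3 differed most, and at different steps. Sod2 (chromosome 1, 47914757 to 47921587 on rn6) encodes the manganese dismutase of the mitochondrial matrix. Its level was 70.9, 69.2 and 61.5 CPM in fetal libraries 1 to 3, 78.95, 76.3 and 78.2 in the neonatal and 1007, 702 and 531 in the adult libraries. The adult libraries lay far above all 6 others and spread widely among themselves, with adult library 1 highest. From neonatal to adult the log2 fold change was 3.26 (SE 0.21, edgeR adjusted p = 2.12e-06), which is 9.60-fold, and it was 3.47 (SE 0.21, edgeR adjusted p = 8.52e-07) from fetal to adult. From fetal to neonatal it was 0.21 (edgeR adjusted p = 0.42) and did not pass, although the libraries of these ages did not overlap. Adult library 1, with the highest Sod2, had the lowest macrophage marker sum of the adult libraries, at 2566 CPM against 3122 and 3395. That sum was also higher in every adult library than in the neonatal ones, at 108 to 120.1 CPM. Its part in the Sod2 result was not tested. RefSeq names 1 pseudogene of Sod2, so reads of the copy could be left out or counted elsewhere.

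Sod3 (chromosome 14, 60958591 to 60964324), the dismutase that cells secrete onto the matrix, was higher by birth. Fetal libraries held 47.02, 42.9 and 19.4 CPM, neonatal libraries 199.6, 216 and 204 and adult libraries 282, 252 and 239. No fetal library reached the neonatal range, and fetal library 3 was the lowest. Neonatal exceeded fetal cells by a log2 value of 2.501 (SE 0.28, edgeR adjusted p = 0.000322), 5.66-fold, and 2.20 (edgeR adjusted p = 1.91e-08) without fetal library 3. From neonatal to adult it was 0.32 (edgeR adjusted p = 0.304), below the threshold, with the adult libraries all above the neonatal ones. Against fetal cells the adult level was higher by 2.82 (SE 0.28, edgeR adjusted p = 2.3e-05).

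Sod1, the cytosolic copper-zinc dismutase, had the highest mean level of the dismutases per kilobase at every age, at 307 ± 24.9 RPKM in fetal, 282 ± 7.92 in neonatal and 409 ± 4.73 in adult cells (mean ± SD, n = 3). Its CPM were 198, 184 and 216 in the fetal, 184, 178 and 188 in the neonatal and 269, 266 and 263 in the adult libraries. The adult rise was small beside that of Sod2, with log2 fold changes of 0.54 (SE 0.07, edgeR adjusted p = 0.000126) from neonatal and 0.41 (SE 0.07, edgeR adjusted p = 0.000484) from fetal cells. The make-up of the dismutase transcripts therefore shifted. Sod1 was 85.04% ± 3.45 of the family's RPKM in fetal cells, 64.2% ± 1.24 in neonatal and 45.02% ± 5.87 in adult cells. Sod2 took 9.06% ± 0.967, 8.58% ± 0.139 and 38.7% ± 6.85 at the same ages, and Sod3 was largest in the neonatal cells at 27.2% ± 1.32. In adult library 1 Sod2 was above Sod1, at 45.8% against 38.8% of the family. Catalase, the peroxisomal enzyme that splits hydrogen peroxide, stood at 99.2, 101 and 85.2 CPM in fetal, 130.3, 125 and 115 in neonatal and 135, 112 and 108 in adult libraries. It was higher after birth by 0.38 (edgeR adjusted p = 0.0188), a call lost without neonatal library 1 (edgeR adjusted p = 0.0667) or 2 (0.0595). The adult level was above the fetal by 0.31 (edgeR adjusted p = 0.0204), a call lost without adult library 1 (0.0676).

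**Figure D2:**
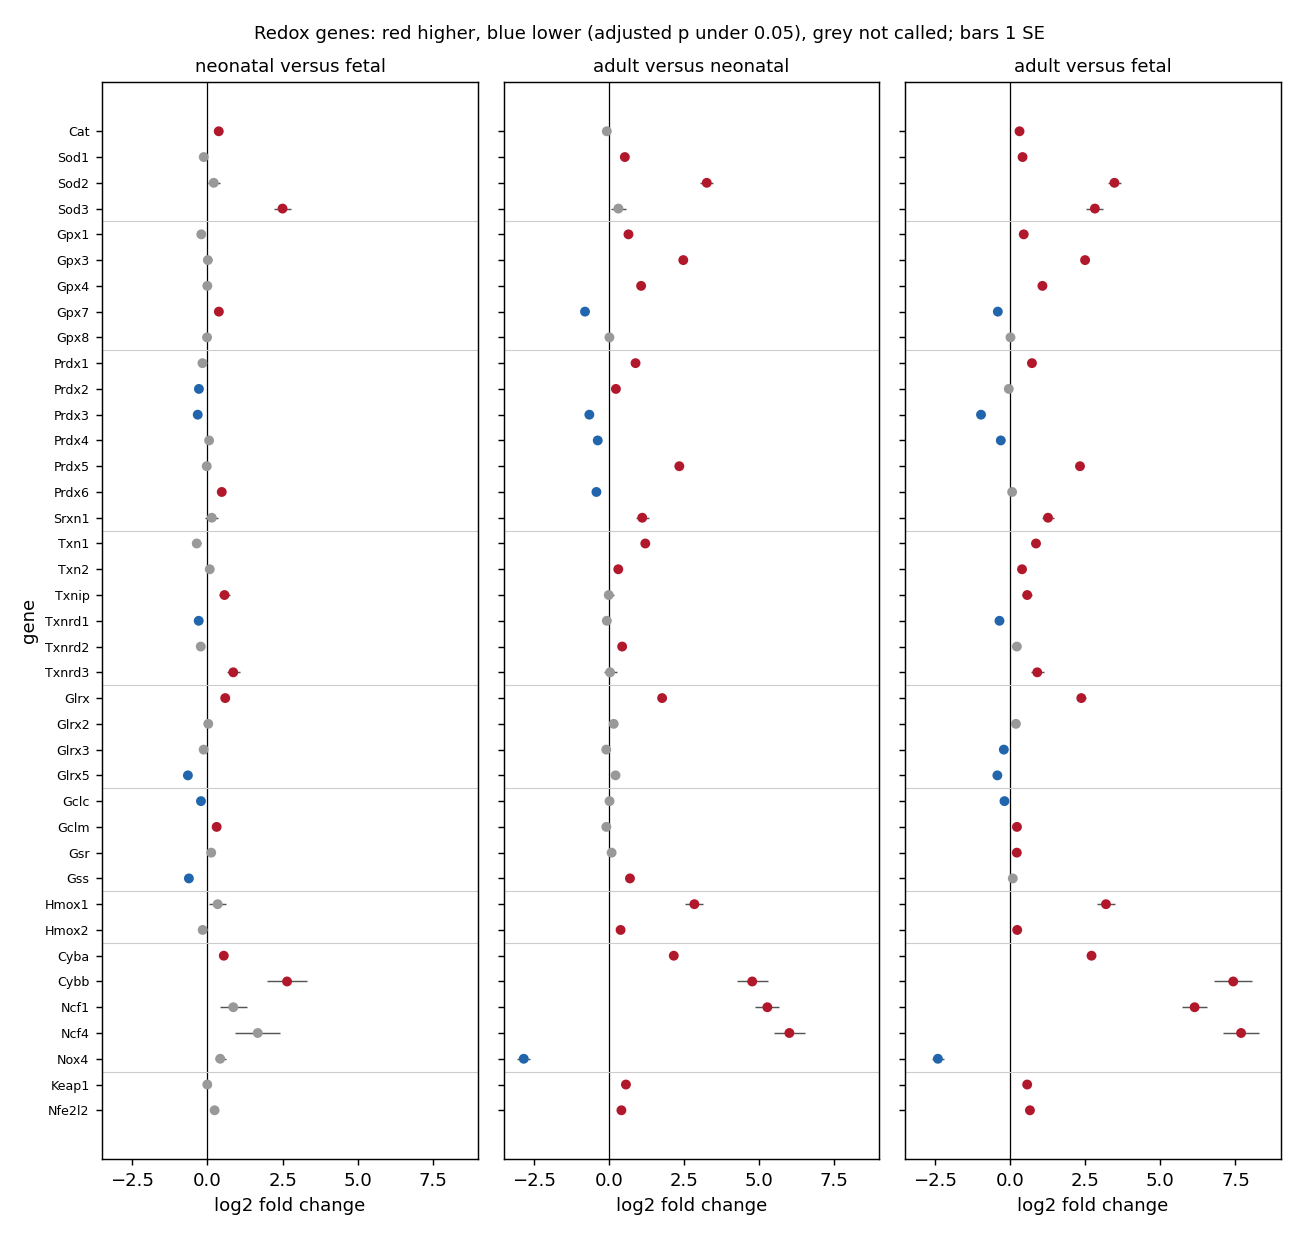
Log2 fold changes (horizontal axis, bars 1 SE) of 39 of the 41 tested genes in each pair of ages, with Gpx2 left off because its SE is above 1; red and blue points passed an edgeR adjusted p under 0.05. Most points of the fetal to neonatal panel lie near 0, Sod3 and Cybb being the exceptions above 2, while the adult panels carry the large values, up to 7.69 for Ncf4, with Nox4 alone below -2.

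Glutathione peroxidases use glutathione to reduce peroxides. Of the 8 genes, Gpx5 and Gpx6 were not detected. In the adult libraries 4 of the 6 tested were higher than in the neonatal ones (Gpx1, Gpx2, Gpx3 and Gpx4), Gpx7 was lower and Gpx8 did not pass. Over all genes tested, 31.6% were higher and 31.8% lower. Gpx3 (chromosome 10, 40247436 to 40255423 on rn6), the secreted plasma form, stood at 229, 233 and 235 CPM in fetal, 238, 232 and 233 in neonatal and 1613, 1210.3 and 1106 in adult libraries. Fetal and neonatal values lay within the same narrow band, and every adult library was far above it. Adult exceeded neonatal cells by 2.48 (SE 0.13, edgeR adjusted p = 5.09e-07) on the log2 scale, 5.58-fold, and fetal cells by 2.495 (SE 0.13, edgeR adjusted p = 2.66e-07).

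Gpx4, which reduces lipid peroxides in membranes and guards against ferroptosis, held 129, 108 and 137 CPM in the fetal, 126, 126 and 122 in the neonatal and 283, 255 and 251 in the adult libraries. It was 2.11-fold higher in adult than in neonatal cells, on the log2 scale 1.08 (SE 0.09, edgeR adjusted p = 9.04e-06), without overlap. Gpx1, the cytosolic and mitochondrial form, rose less, from 172, 168 and 165 CPM to 265, 263 and 268, by 0.66 (SE 0.07, edgeR adjusted p = 4.21e-05). Its fetal level was 206, 174 and 201 CPM, and the fetal to neonatal difference did not pass (-0.20 (edgeR adjusted p = 0.05)). RefSeq names 4 pseudogenes of Gpx4, which makes its level less certain.

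The endoplasmic reticulum members did not share the adult rise. Gpx7, which takes part in oxidative protein folding, stood at 121, 110.3 and 90.2 CPM in fetal, 144, 140.1 and 135 in neonatal and 79.4, 78.3 and 84.7 in adult libraries. It was highest in the neonatal and lowest in the adult libraries, without overlap. The log2 fold change was -0.79 (SE 0.10, edgeR adjusted p = 0.000112) from neonatal to adult and -0.41 (SE 0.10, edgeR adjusted p = 0.00481) from fetal to adult. The neonatal rise of 0.38 (edgeR adjusted p = 0.0162) was lost without neonatal library 1 (edgeR adjusted p = 0.0568) or 2 (0.053). Gpx8, its relative in the same compartment, lay between 176 and 194 CPM in the 9 libraries and passed in no pair of ages. By share of the family's RPKM, Gpx3 went from 20.8% ± 0.307 in neonatal to 52.6% ± 4.14 in adult cells, and Gpx7 from 17.6% ± 0.172 to 4.70% ± 0.677. The share of Gpx8 went from 22.3% ± 0.569 to 10.4% ± 0.736, although its own level differed in no pair of ages at the threshold.

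Gpx2, an epithelial form best known from the gut, was near zero in most fetal and neonatal libraries. Its level was 0.108, 0.176 and 20.7 CPM in the fetal libraries, 0.0550, 0.0929 and 0 in the neonatal and 12.2, 6.79 and 5.84 in the adult ones. Fetal library 3 alone held 389 of the 395 fetal counts, and the lung epithelial markers were highest in that same library, at 259.9 CPM. The fall from fetal to neonatal cells, -6.82 (SE 2.28, edgeR adjusted p = 0.0451), rested on that library: without it the value was -1.31 (edgeR adjusted p = 0.408). It was also lost without any one of the neonatal libraries (0.124 to 0.126) or of the adult libraries (0.0546 to 0.0608). From neonatal to adult cells the ratio of summed counts was 151.5 (95% exact interval 51.4 to 738.5, counting error only), from 3 neonatal counts against 332 adult counts. The fitted log2 fold change of 7.08 (edgeR adjusted p = 0.0231) was lost without any one of the neonatal libraries (0.0683 to 0.0687). In the adult libraries, where Gpx2 was at 12.2, 6.79 and 5.84 CPM, the lung epithelial markers summed to 0.674 to 1.44 CPM. The part of lung epithelial cells in these levels was not tested.

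Peroxiredoxins reduce hydrogen peroxide through a reactive cysteine, and sulfiredoxin repairs them when that cysteine is over-oxidised. All 7 genes passed between neonatal and adult cells, 4 higher and 3 lower, where 31.6% and 31.8% of all genes tested were. Prdx5 (chromosome 1, 222164462 to 222167447 on rn6), found in mitochondria, peroxisomes and cytosol, had the largest difference. Its level was 166, 159.7 and 202 CPM in fetal, 178, 169 and 174 in neonatal and 950.3, 833 and 866 in adult libraries. The adult libraries were close together and far above all others. Its log2 fold change was 2.35 (SE 0.10, edgeR adjusted p = 1.52e-07) from neonatal and 2.33 (SE 0.10, edgeR adjusted p = 9.14e-08) from fetal to adult, and none from fetal to neonatal passed (-0.02 (edgeR adjusted p = 0.876)). Prdx5 made up 16.5% ± 0.233 of the family's RPKM in neonatal and 50.9% ± 1.33 in adult cells.

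Prdx3, the peroxiredoxin restricted to mitochondria, ran in the opposite direction. It stood at 189, 187 and 159 CPM in fetal, 147, 142 and 139 in neonatal and 87.5, 90.3 and 95.7 in adult libraries, a descent at both steps with no overlap. The log2 fold change was -0.32 (SE 0.08, edgeR adjusted p = 0.011) from fetal to neonatal, -0.65 (SE 0.08, edgeR adjusted p = 7.86e-05) from neonatal to adult and -0.97 (SE 0.08, edgeR adjusted p = 3.94e-06) from fetal to adult. The first of these was lost without neonatal library 3 (edgeR adjusted p = 0.0583). The sum of markers of cardiomyocytes, cells rich in mitochondria, was also lower at each later age, and its part in this result was not tested. The transcripts of Sod2 and Prdx3, both encoding mitochondrial enzymes, thus differed in opposite directions between neonatal and adult cells.

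Of the rest, Prdx1 in the cytosol rose from 85.4, 84.1 and 88.3 CPM in neonatal to 148, 163 and 168 in adult libraries, by 0.89 (SE 0.07, edgeR adjusted p = 5.24e-06) on the log2 scale. Its fetal level was 96.6, 91.1 and 101 CPM, and RefSeq names 7 pseudogenes of it. Prdx2, the most abundant peroxiredoxin per kilobase in fetal cells at 385 ± 16.5 RPKM, dipped in the neonatal libraries: 345, 317 and 335 CPM in fetal, 279.5, 273 and 268 in neonatal and 333, 310.5 and 324 in adult ones, with -0.28 (edgeR adjusted p = 0.0077) and then 0.24 (edgeR adjusted p = 0.00761). Prdx6, which acts with glutathione and also has phospholipase activity, peaked there, at 250.1, 241 and 209 CPM in fetal, 338, 318 and 319.7 in neonatal and 254, 241 and 239 in adult libraries. Its log2 fold changes were 0.48 (edgeR adjusted p = 0.00179) and -0.41 (edgeR adjusted p = 0.00127), and the fetal to adult difference did not pass (0.07 (edgeR adjusted p = 0.452)). Prdx4 of the endoplasmic reticulum was lower in the adult libraries, at 134, 125 and 122 CPM against 167, 163 and 161 in the neonatal ones (-0.37 (edgeR adjusted p = 0.00146)). Srxn1, sulfiredoxin, held 30.5, 30.4 and 17.3 CPM in fetal, 29.7, 29.1 and 27.9 in neonatal and 76.8, 58.5 and 52.3 in adult libraries, and was 2.17-fold higher in adult than in neonatal cells (1.11 (edgeR adjusted p = 0.0016)).

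The thioredoxin system hands electrons from NADPH to peroxiredoxins and other proteins. Txn1, the cytosolic thioredoxin, had the highest RPKM of its class, 919 ± 196 in fetal, 719 ± 29.2 in neonatal and 1669.6 ± 101 in adult cells. In CPM the fetal libraries stood at 256, 241 and 352, the neonatal at 232, 217 and 215 and the adult at 549, 504 and 489. Every adult library was above every other, and fetal library 3 was the highest of the fetal ones. This gave log2 fold changes of 1.22 (SE 0.13, edgeR adjusted p = 4.52e-05) from neonatal and 0.86 (SE 0.13, edgeR adjusted p = 0.000285) from fetal to adult. Mitochondrial Txn2 was higher by 0.32 (edgeR adjusted p = 0.00313) from neonatal to adult, within a range of 104 to 154 CPM over all 9 libraries.

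The reductases moved in different directions. Txnrd1, the cytosolic reductase and a known NRF2 target, was lower after birth, from 209, 212 and 230.1 CPM in fetal to 179, 184 and 169 in neonatal libraries (-0.29 (edgeR adjusted p = 0.00752)), a call lost without neonatal library 3 (edgeR adjusted p = 0.0502). It then stood at 167, 174 and 168 in adult libraries, with no difference from the neonatal ones that passed (-0.06 (edgeR adjusted p = 0.393)). Txnrd3 was low, at 11.1, 8.59 and 5.74 CPM in fetal and 14.5, 15.2 and 16.4 in neonatal libraries. That gave a log2 fold change of 0.86 (edgeR adjusted p = 0.0145), also lost without neonatal library 3 (0.0502). Txnrd2, the mitochondrial reductase, was higher in adult than in neonatal cells by 0.45 (edgeR adjusted p = 0.00871), but its exons overlap exons on the opposite strand and counting used no strand. Txnip, which binds and inhibits thioredoxin, was at 234, 251 and 149.5 CPM in fetal, 309, 315 and 317 in neonatal and 356, 311 and 275 in adult libraries. It was higher in neonatal than in fetal cells by 0.57 (edgeR adjusted p = 0.0323), a call lost without any one of the neonatal libraries (0.0744 to 0.0825) or adult library 2 (0.0509). Its adult level was higher than the fetal by 0.57 (edgeR adjusted p = 0.016), lost without adult library 1 (0.0556).

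Glutaredoxins remove glutathione from protein cysteines or carry iron-sulfur clusters. Glrx (chromosome 2, 2606032 to 2615944 on rn6), the cytosolic enzyme, rose at both steps. It stood at 10.5, 8.15 and 6.90 CPM in fetal, 12.8, 13.01 and 12.7 in neonatal and 46.7, 43.9 and 41.5 in adult libraries, with no overlap between any ages. Its steps were 0.59 (SE 0.14, edgeR adjusted p = 0.0108) on the log2 scale from fetal to neonatal and 1.78 (SE 0.14, edgeR adjusted p = 5.03e-06) from neonatal to adult. RefSeq names 9 pseudogenes of Glrx, the most of any member. The other glutaredoxins had smaller differences in the adult. Glrx3, the highest of the class per kilobase at 181 ± 6.16 RPKM in fetal cells, had a log2 fold change of -0.21 (edgeR adjusted p = 0.0136) from fetal to adult. Mitochondrial Glrx5 was lower in neonatal libraries, at 34.8, 34.7 and 34.5 CPM, than in fetal ones at 61.4, 52.8 and 49.02 (-0.65 (edgeR adjusted p = 0.000804)), and stood at 41.4, 38.3 and 41.99 in adult libraries. Glrx2 passed in no pair of ages.

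Glutathione itself is made by the glutamate-cysteine ligase pair Gclc and Gclm and by Gss, and is recycled by Gsr. Of these 4 genes Gss differed most at each step between neighbouring ages. Gss dipped in the neonatal libraries, at 69.8, 64.4 and 86.7 CPM in fetal, 50.2, 48.9 and 44.8 in neonatal and 80.4, 76.2 and 78.2 in adult ones. Neonatal libraries were below all others, with log2 fold changes of -0.62 (edgeR adjusted p = 0.00244) and 0.71 (edgeR adjusted p = 0.000334). Between neonatal and adult cells the ligase pair and Gsr did not pass, with 0.03 (edgeR adjusted p = 0.711) for the catalytic Gclc, -0.08 (edgeR adjusted p = 0.458) for the modifier Gclm and 0.10 (edgeR adjusted p = 0.296) for Gsr. Gclc was lower after birth, at 63.9, 61.8 and 61.4 CPM against 70.6, 74.00 and 72.5 in fetal libraries, and Gclm higher, at 32.9, 32.2 and 35.01 against 27.2, 27.8 and 25.8. The Gclc call, -0.21 (edgeR adjusted p = 0.0192), was lost without fetal library 2 or any one of the neonatal libraries (0.0555 to 0.0881), and the Gclm call, 0.31 (edgeR adjusted p = 0.0258), without fetal library 1 or any one of the neonatal libraries (0.0533 to 0.084). From fetal to adult the log2 fold changes were -0.19 for Gclc, 0.23 for Gclm and 0.22 for Gsr. Gclc lost that call without adult library 3 (edgeR adjusted p = 0.0556), Gsr without fetal library 2 or adult library 2 or 3 (0.0646 to 0.0789), and Gclm without each library but adult library 3 (0.0618 to 0.144).

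Heme oxygenases split heme into biliverdin, iron and carbon monoxide. Hmox1 (chromosome 19, 14508634 to 14515456 on rn6), the inducible form, stood at 77.5, 75.8 and 38.7 CPM in fetal, 81.5, 79.9 and 81.9 in neonatal and 426, 798 and 530.0 in adult libraries. All adult libraries were above all others, with adult library 2 the highest and fetal library 3 the lowest. On the log2 scale the rise was 2.85 (SE 0.30, edgeR adjusted p = 5.17e-05) from neonatal to adult, 7.21-fold, and 3.19 (SE 0.31, edgeR adjusted p = 1.93e-05) from fetal to adult, while that from fetal to neonatal did not pass (0.34 (edgeR adjusted p = 0.376)). Hmox2, the constitutive form, was higher in adult than in neonatal cells by 0.39 (edgeR adjusted p = 0.00241), with 40.8 to 61.7 CPM over all libraries. Its fetal to adult difference of 0.24 (edgeR adjusted p = 0.0272) was lost without fetal library 1 or 2 or adult library 1 or 3 (0.0711 to 0.0869).

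NADPH oxidases are the members that produce superoxide or hydrogen peroxide. Between neonatal and adult cells the catalytic subunits changed places: Nox4, the constitutively active oxidase of fibroblasts, fell, and Cybb, the catalytic gp91phox of phagocytes, rose. Nox4 (chromosome 1, 150797202 to 150974737 on rn6) stood at 20.5, 22.4 and 12.7 CPM in fetal, 25.5, 25.3 and 24.01 in neonatal and 3.29, 3.39 and 3.82 in adult libraries. Every adult library was far below every other, and fetal library 3 was the lowest of the rest. The log2 fold change was -2.83 (SE 0.21, edgeR adjusted p = 4.29e-06) from neonatal to adult, 7.11-fold lower, and -2.40 (SE 0.21, edgeR adjusted p = 7.11e-06) from fetal to adult. Fetal and neonatal cells differed by 0.43 (edgeR adjusted p = 0.0932), which did not pass. The mural marker sum, and 4 of its 6 genes, were also lower in adult than in neonatal cells. So was the fibroblast marker sum, with 4 of its 9 genes lower and 2 higher. Of all genes tested, 31.8% were lower and 31.6% higher. The part of both lists in this result was not tested. Nox1 was at most 2.07 CPM, in fetal library 3, and shares exons with Cstf2 on the opposite strand.

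Cybb (chromosome X, 14578330 to 14610049) stood at 0.162, 0.132 and 2.87 CPM in fetal, 7.70, 6.13 and 5.31 in neonatal and 159, 180.1 and 187 in adult libraries. The 3 ages did not overlap, and fetal library 3 held 54 counts where fetal libraries 1 and 2 held 3 each. The neonatal to adult log2 fold change was 4.77 (SE 0.51, edgeR adjusted p = 5.62e-05). From fetal to neonatal it was 2.65 (SE 0.67, edgeR adjusted p = 0.016), with 5.39 (edgeR adjusted p = 6.52e-07) without fetal library 3 and 2.501 (edgeR adjusted p = 0.0559) without neonatal library 1. By summed counts the neonatal libraries were 44.1 times fetal libraries 1 and 2 (95% exact interval 20.1 to 120.9, counting error only). From fetal to adult it was 7.43 (edgeR adjusted p = 8.53e-06) with all libraries, 10.16 without fetal library 3 and 6.84 without fetal library 2. Per kilobase, Cybb was 24.2% ± 3.01 of the summed RPKM of Nox1, Nox3, Nox4 and Cybb in neonatal and 98.4% ± 0.118 in adult cells, and Nox4 75.1% ± 2.90 and 1.55% ± 0.0765. The dual oxidases were outside this sum, and in adult cells Duox1 stood at 3.54 RPKM against 1.61 for Nox4.

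The partners of Cybb were also higher in adult than in neonatal cells. Cyba (chromosome 19, 55249634 to 55257824), the p22phox subunit that both Cybb and Nox4 require, stood at 65.2, 55.9 and 54.1 CPM in fetal, 83.6, 84.6 and 87.5 in neonatal and 371, 390.3 and 384 in adult libraries, without overlap. Its log2 fold change was 0.55 (SE 0.08, edgeR adjusted p = 0.000882) and then 2.16 (SE 0.08, edgeR adjusted p = 5.6e-08). Ncf1 (chromosome 12, 25497104 to 25506300), the p47phox organiser, was at 1.46, 1.10 and 4.83 CPM in fetal, 4.13, 4.65 and 4.40 in neonatal and 143, 176 and 193 in adult libraries. Fetal and neonatal values overlapped, fetal library 3 being the highest of the 6. From neonatal to adult the log2 fold change was 5.28 (SE 0.40, edgeR adjusted p = 6.95e-06), and from fetal to adult it was 6.14 (edgeR adjusted p = 2.36e-06), or 7.07 without fetal library 3.

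Ncf4 (chromosome 7, 119482272 to 119499425), the p40phox subunit, was at 0.0540, 0.0881 and 1.91 CPM in fetal, 2.42, 1.81 and 2.14 in neonatal and 113, 147 and 149.6 in adult libraries. For it the neonatal to adult value was 6.01 (SE 0.52, edgeR adjusted p = 1.45e-05), and the fetal to adult value 7.69 (edgeR adjusted p = 4.72e-06), or 10.73 without fetal library 3 and 7.10 without fetal library 2. Fetal libraries 1 and 2 held 3 counts of Ncf4 together, and the fetal to neonatal difference of 1.68 (edgeR adjusted p = 0.114) did not pass with fetal library 3 included. The adult libraries were thus separated from both younger ages for Cybb, Cyba, Ncf1 and Ncf4.

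Markers of macrophages, which carry the phagocyte oxidase, moved with these genes. All 12 were higher in adult than in neonatal cells (31.6% of all genes tested were). From fetal to neonatal cells, 9 of 12 were higher (18.3% of all). Their sum was highest among the fetal libraries in library 3, at 59.9 CPM against 14.4 in each of the others, as were Cybb, Ncf1 and Ncf4. Cyba was lowest in that library, at 54.1 CPM against 65.2 and 55.9. Cd163 had no count in any fetal or neonatal library. In the adult libraries Cd68 stood at 341, 388 and 396 CPM and C1qa at 290.3, 375 and 384, both lowest in adult library 1, as were Cybb, Cyba, Ncf1 and Ncf4. Other markers of the list went the other way: Itgam, at 194, 180.1 and 187 CPM, and Cd163, at 6.27, 2.82 and 2.25, were highest in adult library 1. The 8 neutrophil markers summed to 0.0881 to 0.372 CPM in fetal, 0.194 to 0.232 in neonatal and 2.02 to 2.96 in adult cells, with S100a9, Mpo and Ltf at 0 in the adult. Csf3r, the only marker of that list tested, was higher in adult than in neonatal cells (3.60 (edgeR adjusted p = 0.00332)). Whether the macrophage markers account for these subunits was not tested.

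**Figure D3:**
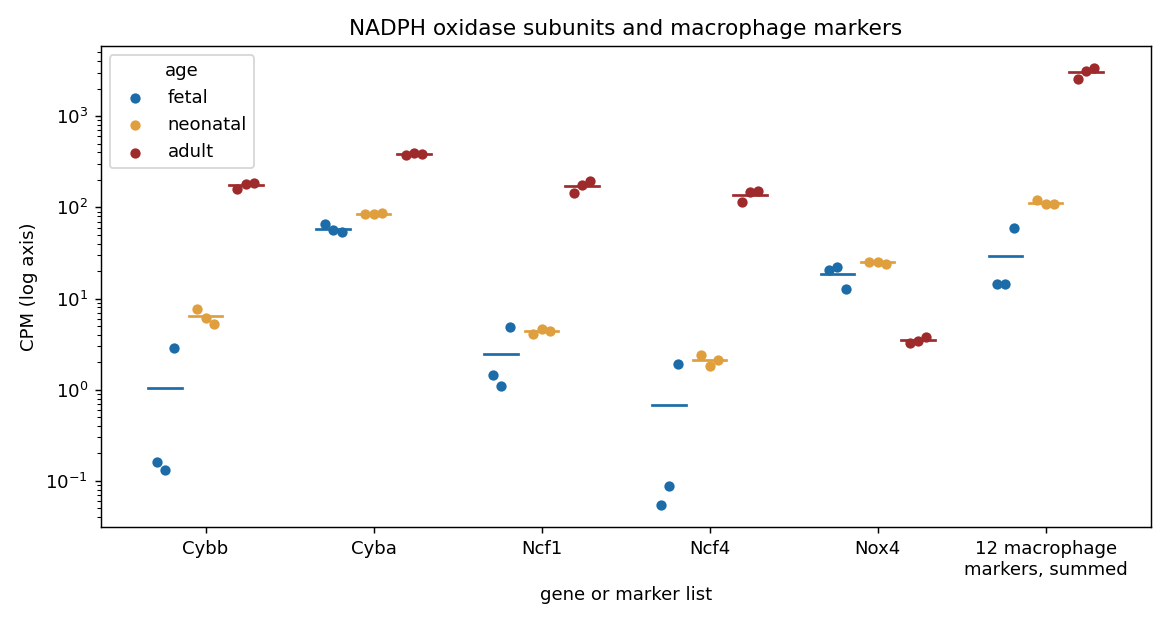
CPM (log axis) of 4 phagocyte oxidase subunits and Nox4 in each library, beside the sum of 12 macrophage markers; points are libraries coloured by age and lines are means of 3. The adult points of Cybb, Cyba, Ncf1 and Ncf4 lie above all others, as do those of the macrophage sum (2566 to 3395 CPM), while the adult points of Nox4 lie below all others.

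The dual oxidases and other genes of oxidase assembly were taken from a list of 10, of which 7 were tested. In adult against neonatal cells 6 were higher and none was lower, where 31.6% and 31.8% of all genes tested were. Rac2, the Rac GTPase of blood cells that activates the phagocyte oxidase, stood at 0.216, 0.220 and 2.18 CPM in fetal, 4.79, 3.72 and 4.66 in neonatal and 256, 261 and 274 in adult libraries (5.92 (edgeR adjusted p = 5.48e-06)). Rac1, its widely expressed relative, differed little, at 235, 226 and 218 CPM in neonatal and 248, 283 and 284 in adult libraries (0.26 (edgeR adjusted p = 0.0302)). The dual oxidase Duox1 rose from 2.09, 1.67 and 1.49 CPM to 34.7, 12.2 and 8.38 (3.39 (edgeR adjusted p = 0.000585)), with adult library 1 far above the others, and its maturation factor Duoxa1 from 2.75, 2.55 and 2.98 to 17.7, 9.68 and 9.06 (2.14 (edgeR adjusted p = 0.0016)). Poldip2, a partner of NOX4, did not pass, at 86.6, 83.9 and 85.2 CPM in neonatal and 89.4, 91.8 and 103 in adult libraries (0.15 (edgeR adjusted p = 0.139)). Noxo1, Noxa1 and Duoxa2 had too few counts to test.

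The regulators themselves were both higher in adult cells. Nfe2l2, encoding NRF2, stood at 198, 211 and 173 CPM in fetal, 234, 220.0 and 232 in neonatal and 333, 291 and 294 in adult libraries. The adult libraries were above all others, with log2 fold changes of 0.42 (SE 0.09, edgeR adjusted p = 0.00229) from neonatal and 0.66 (SE 0.09, edgeR adjusted p = 0.00011) from fetal cells, and the fetal to neonatal difference did not pass (0.24 (edgeR adjusted p = 0.0588)). Keap1, its inhibitor, was at 38.2, 36.01 and 37.5 CPM in fetal, 35.9, 36.00 and 39.7 in neonatal and 54.7, 55.1 and 55.9 in adult libraries. It was higher by 0.57 (SE 0.07, edgeR adjusted p = 6.87e-05) from neonatal to adult. Transcript levels give no measure of NRF2 protein, which KEAP1 controls through degradation.

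Known NRF2 targets and enzymes of NADPH supply outside the 45 were counted from a list of 19, all tested. In adult against neonatal cells 12 were higher and 3 lower, and in adult against fetal cells 14 were higher and 1 lower, beside the shares of all genes given above. Between fetal and neonatal cells 4 were higher and 1 lower. Their median log2 fold change from neonatal to adult was 0.57. Fth1, the ferritin heavy chain that stores iron, stood at 315, 296 and 291 CPM in fetal, 252, 238 and 240.4 in neonatal and 1707, 1606 and 1370.3 in adult libraries (2.68 (edgeR adjusted p = 4.75e-08)). Its partner Ftl1 went from 70.4, 68.01 and 67.9 to 207, 225 and 202 CPM (1.62 (edgeR adjusted p = 2.95e-06)). From neonatal to adult cells both changed in the same direction as Hmox1, whose reaction releases iron. From fetal to neonatal cells Fth1 was lower (-0.30 (edgeR adjusted p = 0.026)), while Hmox1 did not pass. A link between Hmox1 and the ferritin genes was not tested.

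Among genes of NADPH supply, Pgd and Me1 parted. Pgd, an NADPH-forming enzyme of the pentose phosphate pathway, stood at 248, 239.7 and 285 CPM in fetal, 230.0, 229 and 227 in neonatal and 640.2, 692 and 669 in adult libraries (1.55 (edgeR adjusted p = 4.13e-07)). Taldo1, of the same pathway, went from 135, 125 and 131 to 279, 303 and 323 CPM (1.21 (edgeR adjusted p = 1.61e-05)). Me1, the cytosolic malic enzyme, fell from 296, 288 and 293 to 70.6, 96.5 and 95.9 CPM (-1.74 (edgeR adjusted p = 0.000173)). Nqo1, a quinone reductase often used as a readout of NRF2, rose from 23.4, 20.4 and 23.6 to 35.7, 38.1 and 33.98 CPM, by 0.68 (SE 0.08, edgeR adjusted p = 0.000103) on the log2 scale. Slc7a11, which imports cystine for glutathione, was higher by birth instead, at 41.6, 44.3 and 27.8 CPM in fetal, 60.6, 69.8 and 64.1 in neonatal and 60.5, 67.4 and 58.6 in adult libraries (0.77 (edgeR adjusted p = 0.00509)).

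Partners and other regulators of NRF2 were a list of 7 in the table. None passed between fetal and neonatal cells, and 4 were higher and 1 lower in adult than in neonatal cells (31.6% and 31.8% of all genes tested). Maff, a small MAF protein that pairs with NRF2, stood at 20.1, 19.7 and 20.8 CPM in neonatal and 83.6, 56.03 and 49.9 in adult libraries (1.65 (edgeR adjusted p = 3.74e-05)). Cul3, the ubiquitin ligase scaffold that works with KEAP1, was lower in the adult, at 117, 116 and 110.4 CPM against 155, 158 and 158 (-0.46 (edgeR adjusted p = 0.000712)). Bach1, a repressor that competes at the same elements, did not pass (0.03 (edgeR adjusted p = 0.926)). Nfe2, the blood-cell relative of Nfe2l2, was under 0.5 CPM in every fetal and neonatal library and at 7.19, 4.84 and 3.07 CPM in the adult ones (4.46 (edgeR adjusted p = 0.000205)).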

How the data were processed

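Per the file headers, the authors' deposited raw counts per gene were made with featureCounts 1.6.3 and an rn6 annotation with no strand option given. Per the submitters' processing notes, Trimmomatic 0.39, STAR 2.5.2b, Subread 1.6.3, FastQC and DESeq2 were used. Exon lengths came from the same deposited table. A second table of the authors' normalized values was not used here.

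Counts of all 9 libraries were fitted together in edgeR 4.0.16 (R 4.3.3) with age as the only term, after filterByExpr (11337 genes kept) and TMM scaling, by robust quasi-likelihood (glmQLFit, glmQLFTest). P-values were adjusted by Benjamini-Hochberg over all genes tested in a comparison, with 0.05 as the threshold. SE came from the fold change and F. CPM used TMM-scaled library sizes, and RPKM is CPM per kilobase of exon length. Alternatives included DESeq2 1.42.0 and leaving out each library. The fit was tested on simulated counts. Ratios of summed counts have exact intervals.

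Members, lists and tests were chosen with earlier results of these data known, and the GAGGAA search and the counts without phagocyte oxidase subunits were added after values were seen. By rule, values per library are given for members called with a log2 fold change of at least 1, the highest per kilobase of each class, the oxidase genes, Nfe2l2 and Keap1, and others were added. A few genes, 1 member among them, enter the counts, medians and sums but are not reported here by name or plotted. Promoters and pseudogene names are from RefSeq, GRCr8, and all 45 symbols matched it. Gene positions are rn6. No molecular identifiers are named, so intervals treat each read as a molecule and cover counting error only.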

Additional observations from a re-analysis of the deposited data

How the results depend on the processing

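No called member reversed under any alternative. Of 80 member calls, those that kept direction and threshold were 78 with DESeq2, which gave no adjusted p for the other 2 (Gpx2 from fetal to neonatal and from neonatal to adult), 80 with DESeq2 size factors in edgeR, 74 with library totals alone, 77 without the filter on low counts and 74 of 79 with only the 6 libraries of the 2 ages (Gpx2 gave no fetal to neonatal value). A test against a log2 fold change of 0.5 kept 41, since many members differed by less. With it, 2 were higher and 0 lower from fetal to neonatal (5.5% and 4.35% of all genes tested). From neonatal to adult 17 were higher and 3 lower (16.4% and 16.7%). From fetal to adult 17 were higher and 2 lower (21.3% each way). Library totals alone gave 14 lower from fetal to neonatal (29.3% of all genes tested). Leaving out 1 library at a time gave 5 to 12 higher and 3 to 8 lower from fetal to neonatal, 23 to 26 higher and 5 lower from neonatal to adult, 23 to 27 higher and 7 to 9 lower from fetal to adult, and 34 to 38 differing among the ages. Same-numbered libraries did not deviate together, with correlations of -0.06 to 0.05. This gave no sign of pairing by number, but with 3 libraries an age it cannot exclude pairing. The replicate block gave 10 higher and 6 lower from fetal to neonatal, 24 and 5 from neonatal to adult, 25 and 8 from fetal to adult, and 37 among the ages. It ended the calls of Gpx2 from fetal to neonatal (edgeR adjusted p = 0.113) and of Gclm from fetal to adult (0.0719). With 3 libraries an age, small differences, under 0.5 on the log2 scale, rest on the spread of single libraries, and Gpx2, Cybb and Ncf4 on few fetal counts.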

Other observations

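Glutathione S-transferases join glutathione to reactive compounds. Of the 24 genes of this family in the table, 18 were tested. Between fetal and neonatal cells 7 were higher and 3 lower, between neonatal and adult cells 7 were higher and 1 lower, and between fetal and adult cells 9 were higher and 4 lower. Of all genes tested, 18.3% were higher and 18% lower at the first step, 31.6% and 31.8% at the next, and 34.9% and 35.5% from fetal to adult cells, and 38.9% of these 18 genes were higher at each step. Mgst1, the microsomal enzyme, rose at both steps, from 3.83, 3.48 and 2.66 CPM in fetal to 15.2, 18.1 and 15.9 in neonatal (2.30 (edgeR adjusted p = 0.00014)) and 54.9, 33.9 and 33.7 in adult libraries (1.31 (edgeR adjusted p = 0.000362)). Gsta1 stood at 19.2, 18.95 and 7.17, then 50.2, 47.4 and 46.6 and then 200.3, 118 and 117 CPM, with 1.67 (edgeR adjusted p = 0.00711) and 1.59 (edgeR adjusted p = 0.00282). Gstm1 stood at 18.03, 17.5 and 19.5, 28.1, 26.9 and 29.5 and 94.02, 95.02 and 103 CPM, with 0.62 (edgeR adjusted p = 0.000393) and 1.79 (edgeR adjusted p = 1.26e-07). Gstp1, at 164, 157 and 188 CPM in fetal libraries, fell in the neonatal ones, with a log2 fold change of -0.23 (edgeR adjusted p = 0.0423). Members of this family are close copies of each other, so reads could be split or left out among them.

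Other selenoproteins and methionine sulfoxide reductases were a list of 16, of which 13 were tested. From fetal to neonatal cells 1 was higher and 2 were lower (18.3% and 18% of all genes tested). From neonatal to adult cells 4 were higher and 2 lower (31.6% and 31.8%). The 4 are 30.8% of the 13, near the 31.6% of all genes tested. Sepp1, the secreted selenium carrier, stood at 12.2, 13.2 and 8.55 CPM in fetal, 121, 124.4 and 120.5 in neonatal and 365, 231 and 209.8 in adult libraries, and rose at both steps (3.43 (edgeR adjusted p = 3.18e-05) and 1.14 (edgeR adjusted p = 0.00132)). Dio3, which inactivates thyroid hormone, was at 0.220, 0.325 and 0.194 CPM in neonatal and 23.2, 21.1 and 18.04 in adult libraries (6.32 (edgeR adjusted p = 0.00011)). Seli fell at both steps, from 49.7, 49.2 and 60.01 to 36.9, 41.3 and 39.99 and 17.9, 22.1 and 18.6 CPM (-0.43 (edgeR adjusted p = 0.0146) and -1.01 (edgeR adjusted p = 5.09e-05)).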
